A study of Homo sapiens with 20 samples.

Results

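RNA polymerase II (here POL2) sites at the 3 prime ends of protein-coding genes were described in PC-3 cells, an established line of prostate cancer epithelial cells. Summits of the 6 POL2 ChIP-seq lists on chromosomes 1 to 22 and X were pooled, and neighbours no more than 250 bp apart were joined, which gave 34426 sites. A site was kept when it lay from 2 kb before to 2 kb after the end of a protein-coding gene and more than 2 kb from every annotated transcription start site (TSS) of any gene type. This left 2116 sites, or 6.15% of all POL2 sites. Of the others, 20824 lay within 2 kb of a TSS, 7038 lay in gene bodies and 4448 lay elsewhere.

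The groups were 3 POL2 libraries of wild-type (WT) PC-3 cells and 3 of PC-3 cells in which SLK, a protein kinase of the STE20 family, had been knocked out (SLK-KO). Cells of both groups were cultured the same way and cross-linked with formaldehyde, and the study asked about SLK as a partner of the transcription factor c-Myc. All SLK-KO libraries carry the 1 name PSD10, so the knockout may stand for 1 clone. The labels call the replicates biological but name no cultures, so p-values measure the spread between these libraries. Each list gives 1 summit per peak of a single library, with a score taken to be −log10 of that library's q-value. Read depth is unknown. List length after chaining ran from 5013 to 17071 sites in WT and from 15380 to 18953 in SLK-KO libraries, and WT replicate 2 had the shortest list. The epithelial keratin genes KRT8, KRT18 and KRT19 had a promoter summit in 3 WT and 3 SLK-KO libraries, as did the mesenchymal genes VIM and CDH2. The epithelial genes EPCAM (1 WT and 3 SLK-KO libraries) and CDH1 (1 WT and 0 SLK-KO) had one in fewer. KLK3, which marks prostate luminal cells, and the leukocyte gene PTPRC had one in 0 of either group.

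Transcription by RNA polymerase II runs past the annotated end of a gene. The nascent RNA is cleaved shortly after a poly(A) signal, usually AATAAA, and the polymerase slows and stays on the template until the exonuclease XRN2, which digests the remaining RNA, is thought to help release it. Polymerase therefore often accumulates downstream of the ends of active genes. ChIP does not record the strand, so a summit inside another gene, or between 2 gene ends that face each other, cannot be assigned to either gene.

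The sequences under the best-scored summits are shown for named sites that lay past a gene end and outside coding sequence and UTRs, because they show the DNA at which the downstream sites were called. Each run holds 101 bases of GRCh38 centred on the summit, 5′ to 3′ on the strand of the named gene. FST, RELA, EIF4G2, FTSJ1 and CCN5 had a site in every library, AREG in the 3 SLK-KO libraries alone, and CCN2 had the best-ranked site past an end. Capitals mark a match on either strand to TGANTCA (the AP-1 motif), CACGTG (the canonical E-box) or GGGAGGG.
FST, chr5:53488013-53488113, + strand: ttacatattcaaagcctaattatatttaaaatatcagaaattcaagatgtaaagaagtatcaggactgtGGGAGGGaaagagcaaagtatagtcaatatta
RELA, chr11:65652722-65652822, - strand: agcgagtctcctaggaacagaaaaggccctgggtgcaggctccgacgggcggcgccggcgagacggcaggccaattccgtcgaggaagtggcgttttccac
EIF4G2, chr11:10795972-10796072, - strand: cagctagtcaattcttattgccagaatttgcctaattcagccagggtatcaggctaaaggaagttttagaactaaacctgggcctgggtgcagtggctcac
FTSJ1, chrX:48487696-48487796, + strand: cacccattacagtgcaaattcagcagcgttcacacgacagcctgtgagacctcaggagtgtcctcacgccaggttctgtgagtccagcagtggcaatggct
CCN5, chr20:44729107-44729207, + strand: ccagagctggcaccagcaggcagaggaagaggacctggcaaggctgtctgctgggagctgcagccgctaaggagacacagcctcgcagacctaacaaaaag
AREG, chr4:74456206-74456306, + strand: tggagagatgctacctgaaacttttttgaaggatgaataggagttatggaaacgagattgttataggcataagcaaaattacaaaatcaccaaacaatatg
CCN2, chr6:131947755-131947855, - strand: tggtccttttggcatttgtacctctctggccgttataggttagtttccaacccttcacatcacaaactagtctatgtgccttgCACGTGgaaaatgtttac

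These 7 runs differed widely in composition, from 28.7% G and C at FST to 65.3% at RELA. Over all 2116 sites the median was 48.8% in the 100 bp either side of the best summit, between the 45.8% of gene body sites and the 62.2% of sites near a TSS. In the same window TGANTCA was found at 7.42% of the 3 prime end sites, 11.0% of gene body sites and 7.44% of all POL2 sites. CACGTG was found at 3.02% of the 3 prime end sites and 3.37% of all POL2 sites, and GGGAGGG at 9.40% and 13.7%. These matches describe the letters in the window and were not tested.

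POL2 sites were several times denser at gene ends than inside genes in each of the 6 libraries. Density was counted per Mb of sequence more than 2 kb from every TSS, of which the windows around gene ends held 51.2 Mb and coding gene bodies 1034 Mb. In WT libraries the windows held 16.3, 2.52 and 6.39 sites per Mb for replicates 1, 2 and 3. In SLK-KO libraries they held 15.7, 9.60 and 11.4. Gene bodies held 2.50, 0.393 and 0.891 sites per Mb in WT libraries and 3.04, 2.07 and 2.11 in SLK-KO libraries. The ratio of end to body density was 6.55, 6.42 and 7.17 in WT and 5.16, 4.63 and 5.41 in SLK-KO libraries. Against sequence outside coding genes the ratio ran from 13.0 to 14.6 in WT and from 9.06 to 10.7 in SLK-KO libraries. The WT and SLK-KO values did not overlap for either ratio, and neither difference was tested.

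The contrast with gene bodies was also present among genes with POL2 at the promoter in every library. For the 3615 genes with a promoter summit (within 1 kb of one of their TSS) in every library, end windows held 50.5, 10.9 and 24.5 sites per Mb in WT libraries and 48.3, 32.0 and 38.8 in SLK-KO libraries. The bodies of the same genes held between 1.52 and 9.02 sites per Mb. The ratio was 6.09, 7.21 and 7.53 in WT and 5.36, 4.83 and 6.13 in SLK-KO libraries, and here the groups overlapped.

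Sites lay more often past the end of the gene than before it. Of the 2116 sites, 1325 (62.6%) had their midpoint past the end, although sequence past the end made up 26.3 Mb and sequence before it 24.8 Mb of the windows. The median position was 380 bp past the end. Pooled over libraries, density was 21.8 sites per Mb from 2 to 1 kb before the end, 36.4 in the last 1 kb, 53.5 in the first 1 kb past the end and 47.0 in the next 1 kb. The highest 250-bp bin, from 250 to 500 bp past the end, held 220 sites and 65.8 per Mb. The density past the end exceeded that before it 1.66, 2.63 and 2.02 times in WT replicates 1, 2 and 3 and 1.54, 1.52 and 1.49 times in SLK-KO replicates 1, 2 and 3. The mean log2 ratio was 0.82 ± 0.32 (SD, n = 6), or 1.77-fold, positive in 6 of 6 libraries. The exact two-sided sign-flip test gave p = 0.03125, the smallest that 6 libraries allow, and p = 0.125 after adjustment over the 8 tests made, so it did not pass a threshold of 0.05.

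**Figure D1:**
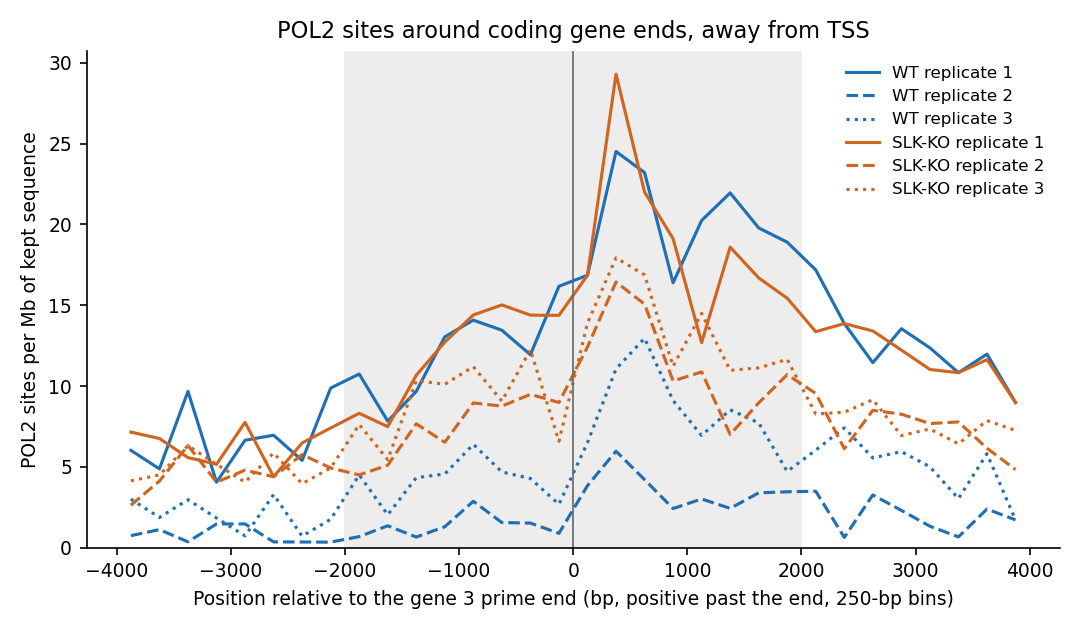
POL2 sites per Mb of sequence more than 2 kb from every TSS, in 250-bp bins from 4 kb before to 4 kb past coding gene ends, 1 line per library. Blue lines are WT and orange lines SLK-KO libraries, and the grey band is the 2 kb window on each side. The lines rise toward the end and are highest within the first 1 kb past it, and within the grey band WT replicate 2 is the lowest.

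The window edges did not coincide with the limits of this pattern on the downstream side. The last 500 bp inside the downstream limit held 306 sites and 47.7 per Mb, and the next 500 bp outside it held 241 sites and 38.6 per Mb. On the upstream side the corresponding values were 143 sites and 24.6 per Mb inside and 113 sites and 20.1 per Mb outside. Density from 2 to 4 kb past the end was 31.5 sites per Mb, above the 18.6 per Mb from 4 to 2 kb before it.

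Most sites before the end were in 3 prime UTRs and most past it were intergenic. Of the 791 sites before the end, 563 (71.2%) lay in a 3 prime UTR. Of the 1325 past it, 914 (69.0%) lay outside every annotated gene. The annotation itself shapes these shares, since sequence before an end lies inside the gene and 0 of the 791 sites could be intergenic. How much of the window sequence falls in each class is not given here. A total of 497 sites (23.5%) lay inside another protein-coding gene. The end of a coding gene on the opposite strand was within 2 kb of 314 sites (14.8%), whereas such sequence made up 5.13% of the windows. At those sites the signal of the 2 genes cannot be told apart.

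The SLK-KO libraries held a smaller share of their sites past the gene end than the WT libraries. In WT replicates 1, 2 and 3, 533 of 836, 95 of 129 and 223 of 327 sites lay past the end, or 63.8%, 73.6% and 68.2%. In the SLK-KO replicates 497 of 802, 303 of 491 and 357 of 583 did, or 62.0%, 61.7% and 61.2%. The means were 68.5% ± 4.95 (SD, n = 3) and 61.6% ± 0.373 (SD, n = 3), with an exact two-sided permutation p = 0.1 and adjusted p = 0.2. The groups did not overlap, and 0.1 is the smallest p that 3 against 3 libraries can give. WT replicate 1 lay close to the SLK-KO libraries. Its Wilson 95% interval, which covers counting error only, ran from 60.4% to 66.9%, and that of SLK-KO replicate 1 from 58.6% to 65.3%. That WT library also had the longest of the WT lists, and WT replicate 2, with the highest share, had the shortest. Every list was then limited to its 5015 best-scored summits, which left WT replicate 2 uncut because it held no more. Sites past the end then numbered 29 of 42, 94 of 132 and 50 of 73 in WT (69.0%, 71.2% and 68.5%). They numbered 23 of 36, 22 of 39 and 23 of 39 in SLK-KO libraries (63.9%, 56.4% and 59.0%), so these shares rest on few sites. The groups overlapped when windows were narrowed to 1 kb or when sites had to be more than 5 kb from every TSS.

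The median position moved in the same direction. It was 419.5, 444 and 507 bp past the end in WT replicates 1, 2 and 3 and 354.5, 321 and 340 bp in SLK-KO replicates 1, 2 and 3. The difference of −118 bp between the means also gave an exact permutation p = 0.1 (two-sided, adjusted p = 0.2), with no overlap between groups. The 2 groups overlapped at 1 kb windows, at score minimums of 5 and 10 and with lists of equal length. The log2 density ratio past against before the end was 1.05 ± 0.335 in WT and 0.60 ± 0.0227 in SLK-KO libraries (SD, n = 3 each). Their difference of −0.45 had an exact two-sided permutation p = 0.1. This ratio is set by the same counts as the share past the end, so it is not a separate result. Sites seen in WT libraries alone had a median position of 433 bp and those seen in SLK-KO libraries alone 307 bp. Sites seen in both genotypes had a median of 428.5 bp. These medians pool sites already counted in the values per library and were not tested. Of the 692 WT-only sites, 483 were found in WT replicate 1 alone. Of the 998 SLK-KO-only sites, 841 were found in 1 library.

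**Figure D2:**
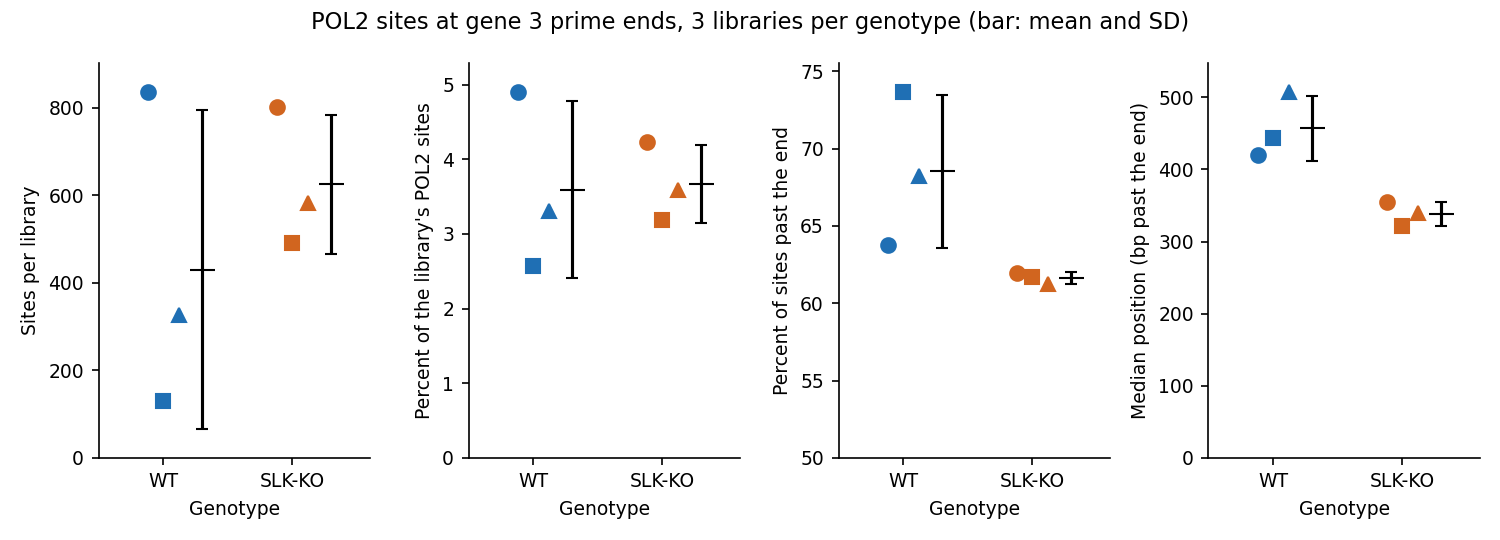
Values per POL2 library by genotype: number of 3 prime end sites, their percent of the library's POL2 sites, the percent past the gene end (axis from 50%) and the median position in bp past the end. Points are libraries (circle, square and triangle for replicates 1, 2 and 3) and bars are mean and SD. Groups overlap for the first 2 values and not for the share past the end and the median position.

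Neither the number of sites nor their share of the list differed beyond the spread. The number was 836, 129 and 327 in WT and 802, 491 and 583 in SLK-KO replicates 1, 2 and 3, a difference in log2 number of 0.90 with an exact permutation p = 0.4 (two-sided, adjusted p = 0.64). As a share of all POL2 sites of the library these were 4.90%, 2.57% and 3.31% in WT and 4.23%, 3.19% and 3.59% in SLK-KO libraries. The difference of 0.0783 percentage points had an exact two-sided permutation p = 1 (adjusted p = 1). The direction turned with list length. Among the 5015 best-scored summits of each list, 42, 132 and 73 sites remained at gene ends in WT and 36, 39 and 39 in SLK-KO libraries, a log2 difference of −0.96 with exact permutation p = 0.1 and no overlap. WT replicate 2, with the 132 sites, held no more than 5015 summits, so its list was not cut.

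The sites ranked low in their lists. Ranks were taken from the authors' scores and are given as percentiles from 0 (best) to 100 (last). The median percentile of 3 prime end sites was 74.7, 68.1 and 74.5 in WT and 73.3, 73.4 and 74.8 in SLK-KO libraries. Sites near a TSS had medians between 38.3 and 45.8, and gene body sites between 71.2 and 74.8. End and body sites differed by −0.15 ± 2.71 percentile points (SD, n = 6; sign-flip exact two-sided p = 0.9375, adjusted p = 1), with end sites ranked better in 2 of 6 libraries. This comparison depended on the annotation. With gene starts alone removed as TSS, end sites ranked 7.12 points worse (exact sign-flip p = 0.03125, adjusted p = 0.0833). Genotypes differed by 1.38 points (exact permutation p = 0.8, two-sided, adjusted p = 1). Only 1, 4 and 5 of the sites were in the best 10% of the list in WT replicates 1, 2 and 3, and 3, 2 and 4 in the SLK-KO replicates.

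Single sites rarely recurred across libraries. Of the 2116 sites, 1499 (70.8%) were found in 1 library, against 49.3% of all POL2 sites, 67.8% of gene body sites and 39.1% of sites near a TSS. Sites found in every library numbered 12 (0.567%), against 1.18% of gene body sites and 13.5% of sites near a TSS. A library shared between 3.59% and 36.7% of its sites with another library.

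Gene ends recurred more often than sites did, but a gene end counted when any site in its window was found. By this rule an end was found in at least as many libraries as each of its sites. Recurrence in windows of equal width elsewhere is not given here. The 2116 sites belonged to 1154 gene ends, of which 563 (48.8%) had a site in 1 library and 591 (51.2%) in 2 or more. A total of 38 gene ends had a site in each of the 6 libraries. Of the 1154 genes, 660 had 1 site, 245 had 2 and 249 had 3 or more. HNRNPA3, which encodes an RNA-binding protein, had 7 sites spread from 1393 bp before to 1843 bp past its end, none of them in more than 2 libraries, although its end had a site in every library. All 7 lay inside the convergent gene NFE2L2, which encodes the antioxidant regulator NRF2. RAN, the GTPase of nuclear transport, had 7 sites in intergenic sequence or its own UTR, from 1647 bp before to 1745 bp past the end. SLC16A3, which exports lactate, also had 7, all within CSNK1D, and COMMD5 had 7, all within ZNF7. SLC20A1, a phosphate transporter, had 6, with 5 of them past the end. Other gene ends with a site in each library were ENO1, PPIF, SF1, EIF5, PYGB, TRA2B and AREG, with 6 separate sites each, named after their values were seen.

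The best-ranked site found in every library lay in the 3 prime UTR of MYC itself, the gene of the study's transcription factor, 769 bp before the gene end. Its rank was 1951, 3243 and 1263 in WT and 1336, 3493 and 3144 in SLK-KO replicates 1, 2 and 3. The site was thus in the better-scored part of the list in 5 libraries and past the middle, at percentile 64.7, in WT replicate 2.

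FST, which encodes the activin-binding protein follistatin, had an intergenic site at chr5:53487381-53488063, 588 bp past the end. Its rank was 2316, 1906 and 2355 in WT and 3320, 4310 and 3217 in SLK-KO replicates. RELA, a subunit of NF-kB, had one at chr11:65652772-65653029, 699 bp past the end and within 2 kb of the end of a gene on the opposite strand. It ranked 2290, 1408 and 1891 in WT and 4966, 3592 and 3433 in SLK-KO replicates. Both sites had a lower rank number in each WT library than in each SLK-KO library, but rank numbers from lists of unequal length show no change, and as percentiles the groups overlapped at both.

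EIF4G2, a translation initiation factor, had its site at chr11:10795808-10796022, 1135 bp past its end in an intron of CTR9, itself a gene for a subunit of the elongation complex PAF1. Ranks were 2866, 3482 and 2722 in WT and 4018, 3705 and 4292 in SLK-KO replicates, which as percentiles were 16.8 to 69.4 and 21.2 to 26.4. FTSJ1, a tRNA methyltransferase gene, had a site at chrX:48487686-48487912, 1435 bp past the end, at percentiles 31.0, 87.0 and 43.2 in WT and 29.1, 32.7 and 21.0 in SLK-KO replicates. CCN5, a matricellular protein gene of the CCN family, had a site at chr20:44729127-44729255, 682 bp past its end in an intron of a non-coding gene. CCN5 had no promoter summit in any of the 6 libraries, and this site cannot be assigned to CCN5 or to the other gene.

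The remaining sites seen in every library and named by rank lay before the gene end. SERINC3, a membrane protein gene, had its site in an intron 1083 bp before the end, at percentiles 53.7, 60.7 and 44.4 in WT and 13.2, 13.2 and 15.5 in SLK-KO replicates. PSMG3, a proteasome assembly chaperone gene, had one in the 3 prime UTR at percentiles 39.9, 94.6 and 45.1 in WT and 24.9, 13.1 and 20.9 in SLK-KO replicates. Ranks come from lists of unequal length here too, and no difference between genotypes was tested at a single site. At SERINC3 the groups overlapped neither in percentile nor in rank number. The rank numbers were 9165, 3044 and 4392 in WT and 2496, 2035 and 2520 in SLK-KO replicates. At PSMG3 the rank numbers themselves overlapped, at 6810, 4743 and 4462 in WT and 4729, 2018 and 3398 in SLK-KO replicates. TGIF1, a homeobox repressor, and TRERF1, a zinc finger factor, had 3 prime UTR sites 557 and 1729 bp before the end with median percentiles of 37.7 and 45.4.

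**Figure D3:**
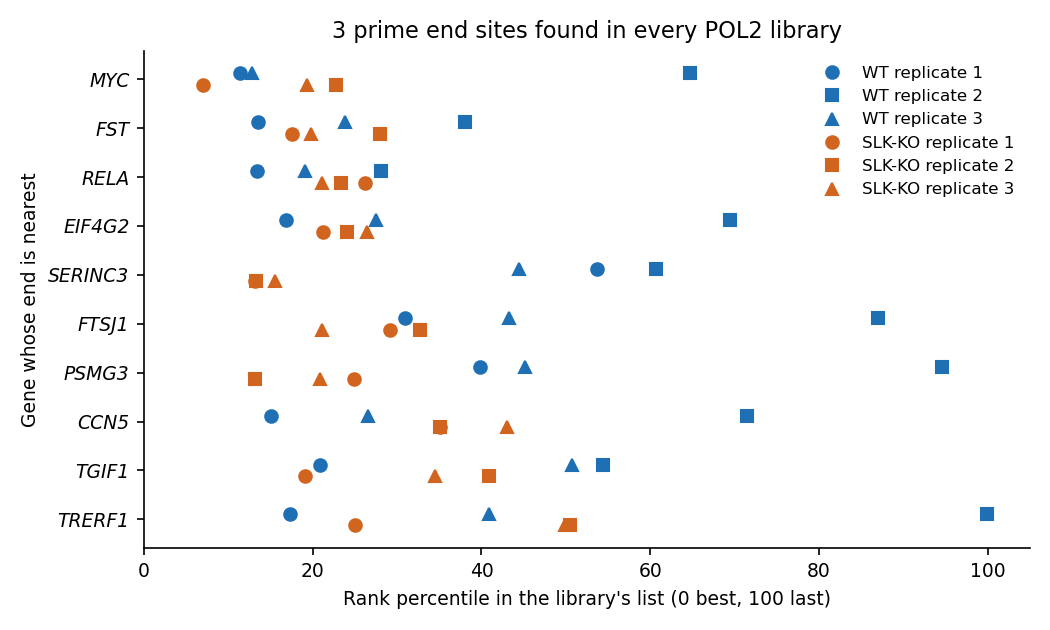
Rank percentile (0 best, 100 last) of the 10 best-ranked 3 prime end sites found in every POL2 library, by gene, 1 point per library. Blue is WT and orange SLK-KO, with circle, square and triangle for replicates 1, 2 and 3. WT replicate 2 is often the point farthest right.

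A total of 28 sites (1.32%) were found in the 3 SLK-KO and 0 WT libraries, against 2.98% of all POL2 sites, and 0 in the 3 WT and 0 SLK-KO libraries, against 0.107% of all POL2 sites. The share in the first class was thus below that of the whole set. Of the 28 sites, 18 lay past the end, and the median percentile over the sites was 62.0. A WT summit lay within 1 kb of 15 of them, where the gene end region was also marked in WT cells. Counted by gene end, 32 of 1154 (2.77%) had sites in the 3 SLK-KO and 0 WT libraries, against 2.87% of genes with a promoter summit by the same rule. The opposite class held 2 gene ends (0.173%), against 0.0186% of genes with a promoter summit.

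The best-ranked of the 28 was in the 3 prime UTR of SNX33, a sorting nexin gene, at chr15:75661135-75661179, 1144 bp before the end. Its rank was 2657, 3035 and 2488 in SLK-KO replicates 1, 2 and 3, and the nearest WT summit was 13523 bp away. For ADGRF1, an adhesion receptor gene, AREG, which encodes the EGF receptor ligand amphiregulin, and RPS14, a protein of the small ribosomal subunit, a WT summit lay 435, 321 and 476 bp away. AREG was also among the ends marked in every library, so its SLK-KO-only site was 1 of 6 scattered sites. ATF3, a stress-induced AP-1 family factor, had a site 444 bp past its end at percentiles 49.5, 82.6 and 49.7 in SLK-KO replicates, and the nearest WT summit was 7617 bp away. ANXA1, a phospholipid-binding protein gene, had one 1429 bp past its end with the nearest WT summit 16310 bp away.

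Genes with a 3 prime end site had a promoter summit far more often than genes without. Of 16620 genes with at least 500 bp of window left, 1132 (6.81%) had a site. In WT libraries 86.0%, 78.4% and 83.3% of the genes with a site in that library also had a promoter summit there, against 45.0%, 18.4% and 34.0% of genes without. In SLK-KO libraries the shares were 86.7%, 86.1% and 85.0% against 47.0%, 43.7% and 45.7%. The difference was 45.3 ± 8.07 percentage points (SD, n = 6), positive in 6 of 6 libraries (exact two-sided sign-flip p = 0.03125, the smallest possible, adjusted p = 0.125). It was 50.1 ± 9.50 in WT and 40.5 ± 1.68 in SLK-KO libraries, by exact permutation p = 0.2 (two-sided). Over the 1132 genes, 582 (51.4%) had a promoter summit in every library, against 15.4% of eligible genes without a site. The genes with a site were also shorter, with a median length of 18292 bp against 33100.5 bp.

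Genes whose promoter ranked best had a 3 prime end site most often. Genes with a promoter summit were divided by its rank into 4 classes of equal size in each library. In the best-ranked class, 15.5%, 8.85% and 10.5% of genes had a 3 prime end site in WT and 15.0%, 10.6% and 12.4% in SLK-KO replicates 1, 2 and 3. In the last class the shares were 2.58%, 0.385% and 0.968% in WT and 2.83%, 1.83% and 1.85% in SLK-KO libraries. Among genes with no promoter summit they lay between 0.178% and 1.01%. The best-ranked class had the highest share in each library, but the classes between did not fall in order throughout. In WT replicate 3 class 2 had 1.45% and class 3 had 2.63%, and classes 3 and 4 held the same number of genes with a site in WT replicate 2 (3 each) and SLK-KO replicate 3 (36 each). Where a gene had both, the end site outranked the promoter in 4.50% to 6.69% of genes, which is 25 of 555 genes in WT replicate 1 and 22 of 329 in SLK-KO replicate 2.

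**Figure D4:**
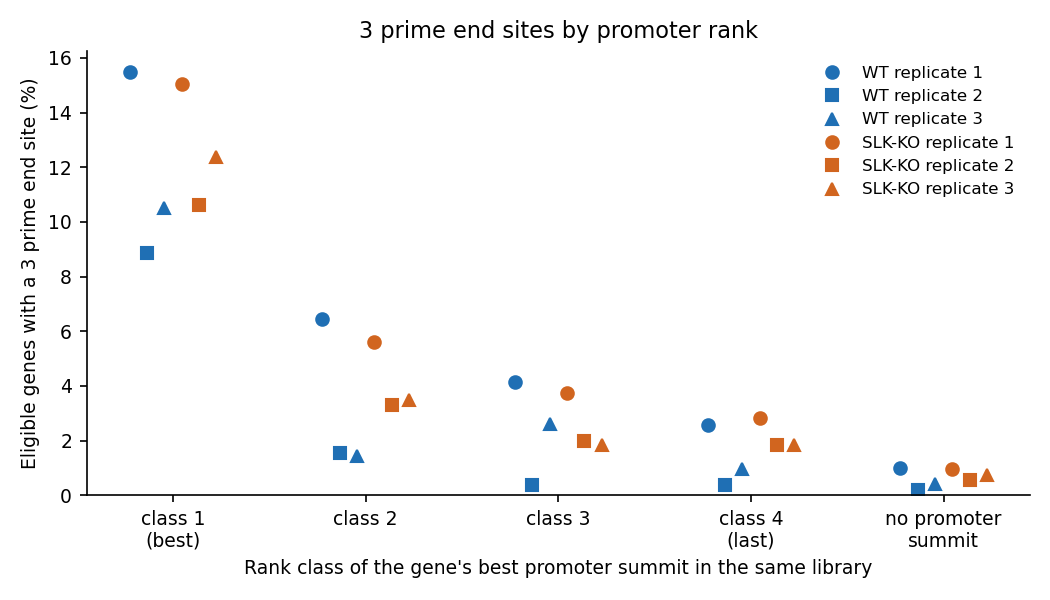
Percent of eligible genes with a 3 prime end site, by the rank class (1 best, 4 last) of the gene's best promoter summit in the same library, with genes without a promoter summit at the right. Points are libraries, blue for WT and orange for SLK-KO. In each library class 1 is the highest.

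Each of the 11 gene lists held a larger share of genes with a site than the 6.81% of all eligible genes, but 10 of the lists also had more genes with promoter summits than the 52.9% over all eligible genes. No list was tested. Among AP-1 and immediate early genes, which respond within minutes to growth signals, 14 of 22 (63.6%) had a 3 prime end site and all had a promoter summit. MYC and ATF3 were among them. KLF10, a TGF-beta-induced repressor, had a site 996 bp past its end in 2 WT and 2 SLK-KO libraries. FOSB, a partner of JUN in AP-1, had a site 844 bp before its end, where its 3 prime UTR overlaps ERCC1, in 1 WT and 3 SLK-KO libraries.

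Of ribosomal protein genes 33 of 66 (50.0%) had a site, 19 of them in 2 or more libraries. RPS19, of the small subunit, had a site 340 bp past its end at percentiles 36.6 and 42.6 in WT replicates 1 and 3 and 44.4, 48.5 and 67.9 in the SLK-KO replicates. RPL38 and RPL21, of the large subunit, had sites 50 and 1296 bp past the end, both in 2 WT and 3 SLK-KO libraries. RPL35A had one 260 bp past its end, inside IQCG, in 2 WT and 2 SLK-KO libraries. Translation factors had a site at 12 of 43 genes (27.9%), with EEF1A2, an elongation factor, and EIF5 each in 2 WT and 2 SLK-KO libraries and EIF1 in 1 WT and 2 SLK-KO libraries.

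Glycolysis genes had a site at 6 of 12 (50.0%). ENO1, the enolase gene, had its most recurrent site 1234 bp past the end at percentiles 23.8 and 67.4 in WT replicates 1 and 3 and 51.0 in SLK-KO replicate 3. HK2, a hexokinase gene, had one 174 bp past its end in 0 WT and 2 SLK-KO libraries, with the nearest WT summit 47777 bp away, and PGAM1 had one in 1 library of each genotype. Sites in at least 2 SLK-KO and 0 WT libraries made up 7.42% of 3 prime end sites, below the 9.61% of all POL2 sites. Actin cytoskeleton and adhesion genes had a site at 9 of 23 (39.1%). TAGLN2, an actin-binding protein gene, had one 1614 bp past its end at percentiles 49.7 and 33.8 in WT replicates 1 and 3 and 22.5, 33.4 and 36.2 in SLK-KO replicates. FLNA, which cross-links actin filaments, had one in 2 WT and 2 SLK-KO libraries, and CAPN2, a calpain protease gene, one in 3 SLK-KO libraries with a WT summit 391 bp away.

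Splicing factor and hnRNP genes had a site at 15 of 42 (35.7%), 10 of them in 2 or more libraries. HNRNPDL had a site in its 3 prime UTR, 1117 bp before the end, at percentiles 39.2 and 47.3 in WT replicates 1 and 3 and 19.4, 28.6 and 20.2 in SLK-KO replicates. SRSF10 and SRSF7, both splicing factors, had sites in 1 WT and 3 SLK-KO and in 2 WT and 2 SLK-KO libraries. Each of these 2 genes ends within 2 kb of a gene end on the opposite strand. SRSF6 had one in 2 WT libraries and 1 SLK-KO library. Heat shock and chaperonin genes had a site at 11 of 65 (16.9%). HSPA5, the chaperone of the endoplasmic reticulum, had one in its 3 prime UTR in 1 WT and 2 SLK-KO libraries, and HSPA9, of mitochondria, one in 2 SLK-KO libraries alone. HSP90AA1, a cytosolic chaperone gene, had one 1027 bp past its end in 2 WT libraries and 1 SLK-KO library.

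The factors that cleave nascent RNA and end transcription had a site at 6 of 20 (30.0%) of their own genes, none in more than 1 library. CPSF4 and CPSF7, of the cleavage and polyadenylation machinery, had theirs in WT replicate 1, and RBBP6 and CPSF6 in SLK-KO replicate 1. Replication-dependent histone genes, whose RNAs end in a stem-loop and are not polyadenylated, had a site at 5 of 19 (26.3%), with H2AC6 in 1 library of each genotype. Only 19 of the 71 genes in this list were eligible. The end used was the outermost annotated one, of a gene 14972 bp long for H2AC6 and 8030 bp for H4C8. Whether these sites lie near a stem-loop was not tested. YAP and TAZ targets had a site at 6 of 22 (27.3%). CRIM1 had one in 2 WT libraries and 1 SLK-KO library, and AMOTL2 and AJUBA each in 2 SLK-KO libraries alone, with the nearest WT summit 390 and 4166 bp away. Keratins, vimentin and lamins had the lowest share, 6 of 55 (10.9%), and a promoter summit at 18.2% of genes. LMNA, the lamin A gene, had a site 1093 bp past its end in 2 WT and 2 SLK-KO libraries. In the same list VIM, the mesenchymal filament gene, had a site 987 bp past its end at ranks 793 and 993 in WT replicates 2 and 3 and in 0 SLK-KO libraries, with the nearest SLK-KO summit 2382 bp away. Its promoter had a summit in every library. Sites in at least 2 WT and 0 SLK-KO libraries made up 1.61% of 3 prime end sites and 1.37% of all POL2 sites.

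**Figure D5:**
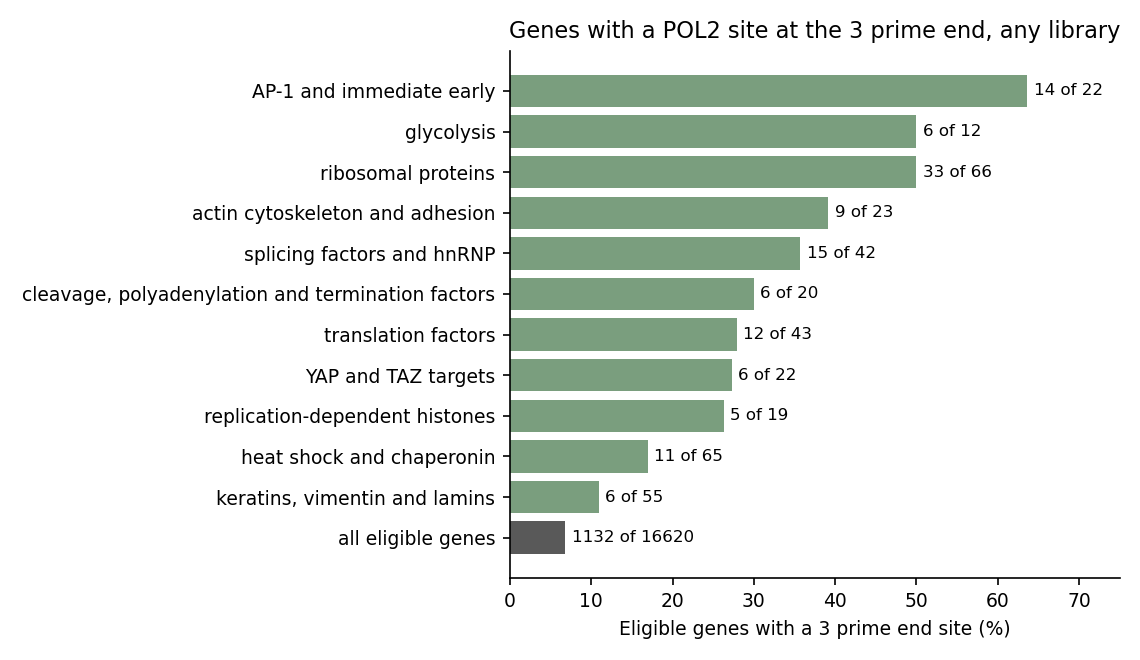
Percent of eligible genes with a 3 prime end site in at least 1 library, by gene list (green) and over all eligible genes (grey), with the number of genes beside each bar. AP-1 and immediate early genes have the highest bar, at 63.6%, and all eligible genes the lowest, at 6.81%.

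The best-ranked sites on each side of the end belonged to the short genes CCN1 and CCN2, YAP targets that encode matricellular proteins. CCN1 had its site 303 bp before the end at rank 30 of WT replicate 3. In that library the gene had no other summit, and in the other 5 libraries its 1 summit lay between 32 and 73 bp from the gene start at ranks 32 to 45. CCN2 had 1 summit in each library. It lay 371 bp past the end in WT replicate 1 (rank 60), 525 and 601 bp before the end in WT replicates 2 and 3 (ranks 39 and 43), and 61, 73 and 57 bp from the gene start in SLK-KO replicates 1, 2 and 3 (ranks 102, 118 and 93). At these genes the single summit that a list gives per peak fell at opposite ends of the gene in different libraries, and whether peaks covered the whole gene was not tested because the lists hold no peak widths.

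Few of the sites lay at a MYC summit. In the same-numbered MYC library a summit lay within 250 bp of 0, 0 and 0 sites in WT and 3, 1 and 1 sites in SLK-KO replicates 1, 2 and 3. These were between 0 and 0.374% of a library's 3 prime end sites. For gene body sites the share, also low, was 0.155% to 0.325% in WT and 0.668% to 1.07% in SLK-KO libraries. For sites near a TSS it was 1.51% to 1.70% in WT and 4.08% to 5.93% in SLK-KO libraries. The SLK-KO shares were thus higher there too. The MYC lists differ greatly in length, and no difference between genotypes was tested. The SLK gene had no 3 prime end site in any library. Its promoter had a summit in 2 WT and 3 SLK-KO libraries.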

How the data were processed

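POL2 ChIP-seq summit lists of 3 WT and 3 SLK-KO PC-3 libraries were used, with the 6 MYC lists for overlap. The IgG and Input samples were not analysed here. Paired-end reads went through nf-core/chipseq version 2.1.0 against GRCh38.p14 per the labels, and the submitters' processing notes name BWA 0.7.18-r1243 and MACS3 3.0.1. The control used in calling is not given in the sources used here. The deposited score was taken to be −log10 of a q-value, since every list began just above 1.30103, the −log10 of 0.05. It is the authors' value per peak, set within its own library, and served only to rank or filter summits.

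Gene ends, TSS and UTRs came from GENCODE release 44, the gene end being the outermost annotated base, so shorter transcripts can end earlier. Position was the distance from that end to the site's midpoint. Genotypes were compared by exact two-sided relabelling and effects within libraries by exact sign flips, with Benjamini-Hochberg adjustment over 8 tests (Python 3.11.15, scipy 1.17.1). Site chaining and position were tested on simulated data. Named were the best-ranked sites in every library, in 1 genotype alone and on each side of the end, the genes with the most sites, SLK, MYC and up to 4 genes per list. Members and lists were chosen with earlier results of these data known. Same-numbered libraries did not pair (correlations of deviations −0.0373, −0.0268 and 0.00916). Sequences came from GRCh38. Alternatives covered windows, TSS distance, chaining, score, list length, isolated ends and each library left out. Some items that these rules select are not reported here.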

Additional observations from a re-analysis of the deposited data

How the results depend on the processing

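Of 133 alternatives to the 8 tests, 118 kept the direction, and 0 adjusted p-values fell below 0.05 in any setting. The share past the end, the median position, the density ratio and the promoter difference kept their direction in each. The difference in log2 number became −0.96 with lists of equal length. That in the percent of sites became −0.152 at a score of at least 10, −0.884 with lists of equal length, −0.427 without WT replicate 2, −0.0583 without WT replicate 3 and −0.201 without SLK-KO replicate 1. The rank difference between genotypes became −2.83 at more than 5 kb from every TSS and −0.998 without WT replicate 2. The rank of end minus body sites became 0.694 with 3 kb windows, 1.40 at more than 5 kb from TSS, 7.12 with gene starts only, 0.00637 with 500 bp chaining, 0.168 with lists of equal length, 0.868 without WT replicate 2 and 0.111 without SLK-KO replicate 2. The cause was not tested.

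Site totals were 1184 with 1 kb windows, 882 at more than 5 kb from TSS, 861 and 257 at scores of at least 5 and 10, and 232 with lists of equal length. Sites in every library numbered 6 and 20 with 1 and 3 kb windows, 5 at more than 5 kb from TSS, 22 with gene starts only, 7 and 30 with 100 and 500 bp chaining, 4 and 1 at scores of at least 5 and 10, and 4 with lists of equal length. Those in 3 SLK-KO and 0 WT libraries numbered 16 with 1 kb windows, 15 at more than 5 kb from TSS, 9 at a score of at least 10, 2 with lists of equal length and 18 at isolated gene ends. Those in 3 WT and 0 SLK-KO libraries numbered 1 with 3 kb windows and 2 with lists of equal length.

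Leaving out 1 library at a time gave a difference in share past the end from −9.24 to −4.42, in median position from −135 to −99.8, in log2 number from 0.23 to 1.57, in percent of sites from −0.427 to 0.725 and in rank from −0.998 to 2.45. The log2 density ratio ran from 0.70 to 0.86, the promoter difference from 42.4 to 46.7, and end minus body rank from −0.548 to 0.868. Totals ran from 1660 to 2058 and sites in every library from 12 to 29 (19 without WT replicate 1, 29 without WT replicate 2). SLK-KO-only sites ran from 29 to 86 (56 without WT replicate 1, and 56, 86 and 70 without SLK-KO replicates 1, 2 and 3) and WT-only sites from 0 to 21 (12, 21 and 2 without WT replicates 1, 2 and 3, and 3 without SLK-KO replicate 3). The rules for sites in every library or in 1 genotype alone then cover only the libraries that remain. They are looser, so these counts can rise for that reason alone. With same-numbered libraries as a replicate block, the difference in share past the end stayed −6.89 and its smallest possible p was 0.25 by exact sign flips, so the block changed no call.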

Other observations

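The density of 3 prime end sites differed between chromosomes. Pooled over libraries it was highest on chromosomes 20 (101 sites per Mb of kept window, 149 sites), 17 (76.8), 21 (72.4) and 14 (63.8), and lowest on chromosomes 4 (15.8), X (17.2) and 9 (18.5). Copy number of PC-3 chromosomes was not measured here.

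The poly(A) signal AATAAA was found in the last 50 bp of 61.0% of eligible genes with a site and 60.1% of those without. Among genes without a site that had a promoter summit in every library the share was 60.5%, and among genes with a site past the end 61.6%. Of the sites found in at least 4 libraries, 13.0% of 123 held TGANTCA within 100 bp of the best summit, against 7.42% of all 3 prime end sites. The same share was 16.1% at 584 gene body sites found in at least 4 libraries.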
